A study of Mus musculus with 6 samples.

Results

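The nuclear genes for the subunits of respiratory complexes II, III, IV and V, with the gene for cytochrome c, were followed in RNA from glomeruli, the filtering tufts of the kidney, isolated from mice. Members were all genes whose mouse symbol is Sdha, Sdhb, Sdhc, Sdhd, Cyc1 or Cycs or begins with Uqcr, Cox4 to Cox8 or Atp5, leaving out annotated pseudogenes. This gave 50 of the 55401 genes in the table, namely 4 of complex II, 9 of complex III, 1 of cytochrome c, 18 of complex IV and 18 of complex V. Of the 50 members, 46 had enough counts to be tested. Cox8b was too low, and Cox7b2, Cox8c and a second gene model named Atp5o were at 0 in all 6 libraries.

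The study compared DKD glomeruli (diabetic kidney disease, as the title of the series spells it) with Control glomeruli, 3 libraries each, by sequencing of polyadenylated RNA. The labels give neither the way the disease was brought about nor the strain, age and sex of the mice. The labels number the libraries without saying that each is a separate animal, so the p-values reflect how these libraries vary, which may be technical. Values for a group are listed in the order of replicates 1, 2 and 3, in CPM, which here are counts relative to the TMM-scaled total of the library.

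The respiratory chain passes electrons from substrates to oxygen and pumps protons across the inner mitochondrial membrane, and the returning protons drive the synthesis of ATP. Complex II (succinate dehydrogenase) feeds electrons from succinate to ubiquinone, complex III (cytochrome bc1) passes them to cytochrome c, complex IV (cytochrome c oxidase) passes them to oxygen, and complex V is the ATP synthase. All 4 subunits of complex II come from nuclear genes, whereas complexes III, IV and V each combine nuclear subunits with a few made inside the mitochondrion. In the kidney the proximal tubule is known for its dense mitochondria and its reliance on oxidative ATP, more so than the cells of the glomerulus.

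Most subunit transcripts of complexes III, IV and V were more abundant in the DKD libraries by a modest factor. Those of complex II overlapped between the groups, as did some of the other complexes. The glomerular samples also held tubule RNA, as the markers below show. However, 0 of the 46 tested members passed the threshold of edgeR's quasi-likelihood test (adjusted p under 0.05), against 1.16% of all 19717 genes tested. The smallest adjusted p was 0.056, for Cox6a1. At an unadjusted p under 0.05, 29 members (63.0%) were higher in DKD and 0 were lower, against 11.8% and 10.9% of all genes. That number was 19 without DKD replicate 1 (8.45% of all genes in that fit), 19 without Control replicate 1 (8.97%) and 18 without Control replicate 2 (8.45%). It was 7 when a trend on transcript length was removed, as given below, against 8.79% of all genes. The 3 DKD libraries lay above the 3 Control libraries for 27 members (58.7%, against 15.5% of all genes) and below them for 1, Cox7a2l (against 15.2% of all genes). In all, 41 members had a log2 fold change above 0 (50.2% of all genes did) and 5 below, namely Sdha, Cox7a2l, Cox6a2, Atp5b and Atp5s. The median over the members was 0.55 on the log2 scale, a fold of 1.47, against 0.003 over all genes. The limma-voom test also called 0 members (1.03% of all genes), whereas DESeq2 called 18 higher (6.39% of all genes were called higher) and 0 lower, of which 3 belong to complex III, 10 to complex IV and 5 to complex V.

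By complex, the median log2 fold change was 0.12 in complex II, 0.52 in complex III, 0.62 in complex IV and 0.54 in complex V. Measured library by library against the Control mean, the complex II median was 0.27, 0.05 and 0.08 in the DKD libraries and −0.15, −0.13 and 0.29 in the Control libraries. The complex IV median was 0.81, 0.42 and 0.65 in DKD, against −0.09, −0.16 and 0.25 in Control. Complex III gave 0.72, 0.28 and 0.54 in DKD and −0.08, −0.15 and 0.33 in Control, and complex V gave 0.73, 0.28 and 0.57 in DKD and −0.10, −0.15 and 0.26 in Control. DKD replicate 2 was the lowest DKD library and Control replicate 3 the highest Control library in every complex, and the 2 libraries came close to each other or crossed in complexes II, III and V. With library totals as the scaling the median of all genes was −0.13, and the complex medians were 0.01, 0.39, 0.50 and 0.41 in complexes II, III, IV and V. The difference between complexes was not tested as such. Bulk RNA cannot tell fewer cells of a type from less RNA per cell, and this holds for all values below.

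**Figure D1:**
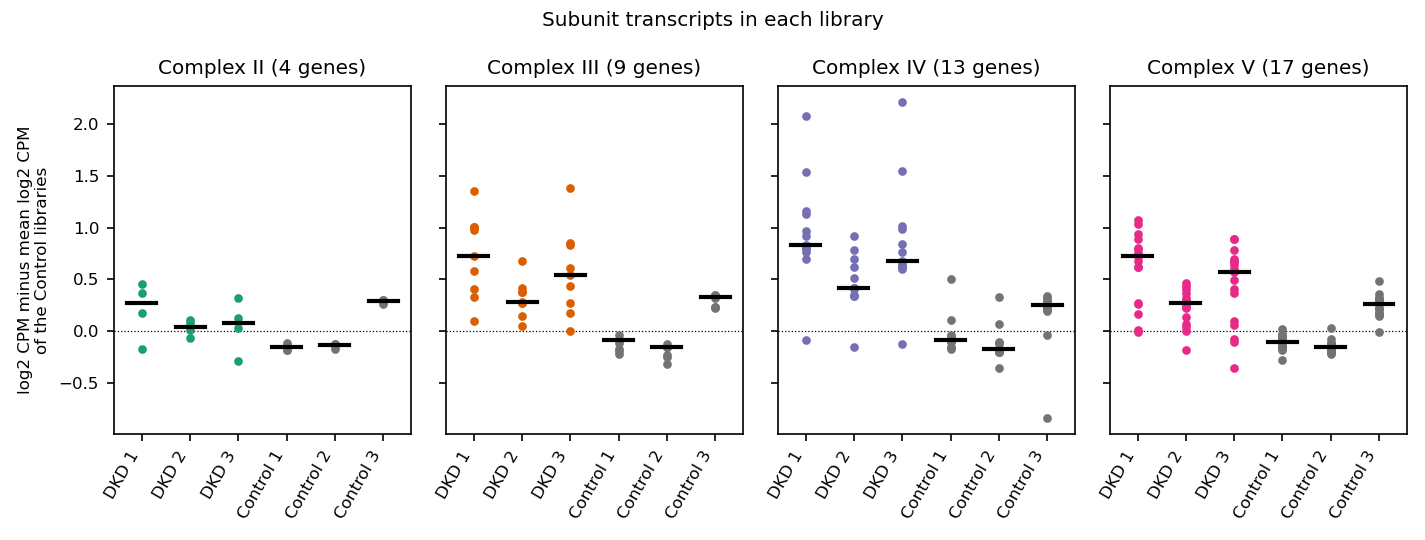
Subunit transcripts in each library, as log2 CPM minus the mean log2 CPM of the Control libraries (vertical axis, log2 units); each point is 1 gene with a mean of at least 1 CPM in Control, and each bar is the median of the plotted genes. The 3 DKD libraries stand left of the 3 Control libraries in each panel; DKD replicate 2 is the lowest of its group and Control replicate 3 the highest of its own in all 4 panels, and the complex II points of the groups overlap.

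Control replicate 3 also stood apart in its cell type markers. The 20 proximal tubule markers summed to 25538, 27100 and 15814 CPM in DKD and to 27183, 29957 and 56316 CPM in Control, where replicate 3 held the most. All 20 had a log2 fold change below 0, and 3 of them passed the test (Slc5a12, Slc7a8 and Slc5a2), against 1.16% of all genes. The 12 podocyte markers, which define the filtering cell of the glomerulus, summed to 351, 365 and 487 CPM in DKD and 708, 580 and 490 CPM in Control, and their median log2 fold change was −0.57. Podxl, a sialomucin of the podocyte surface, was present in every library, at 144, 142 and 184 CPM in DKD and 276, 221 and 211 CPM in Control. The 10 glomerular endothelial markers summed to 349, 593 and 527 CPM in DKD and 765, 682 and 505 CPM in Control. The 12 mesangial and smooth muscle markers summed to 612, 556 and 600 CPM in DKD and 714, 708 and 491 CPM in Control. The 16 markers of the loop of Henle, distal tubule and collecting duct summed to 6849, 8085 and 5717 CPM in DKD and 6506, 7342 and 7025 CPM in Control, with overlap. The genes of this list moved both ways, 2 being higher and 3 lower at an unadjusted p under 0.05, against 11.8% and 10.9% of all genes. Leukocyte markers summed to 134, 273 and 255 CPM in DKD and 175, 199 and 99.6 CPM in Control, and erythrocyte markers to 298, 1401 and 546 CPM in DKD and 408, 438 and 776 CPM in Control, both with overlap. The summed levels of the proximal tubule list thus ran opposite to the members between the groups, while within the Control group replicate 3 was highest in both. The proximal tubule list took 2.33, 2.75 and 1.5% of all counts in DKD and 3.06, 3.35 and 5.1% in Control. The podocyte list took 0.032, 0.037 and 0.0461% in DKD and 0.0798, 0.0648 and 0.0443% in Control. These glomerular samples thus also held tubule RNA, and the values cannot be credited to glomerular cells alone. The part of the tubule content in the member values was not tested. Without Control replicate 3 the medians were 0.28 in complex II, 0.64 in complex III, 0.78 in complex IV and 0.62 in complex V, 35 members were higher at an unadjusted p under 0.05 (12.7% of all genes in that fit), and 4 passed the adjusted threshold (Cox5b, Cox6a1, Cox6b1 and Uqcrq, against 1.88% of all genes).

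**Figure D2:**
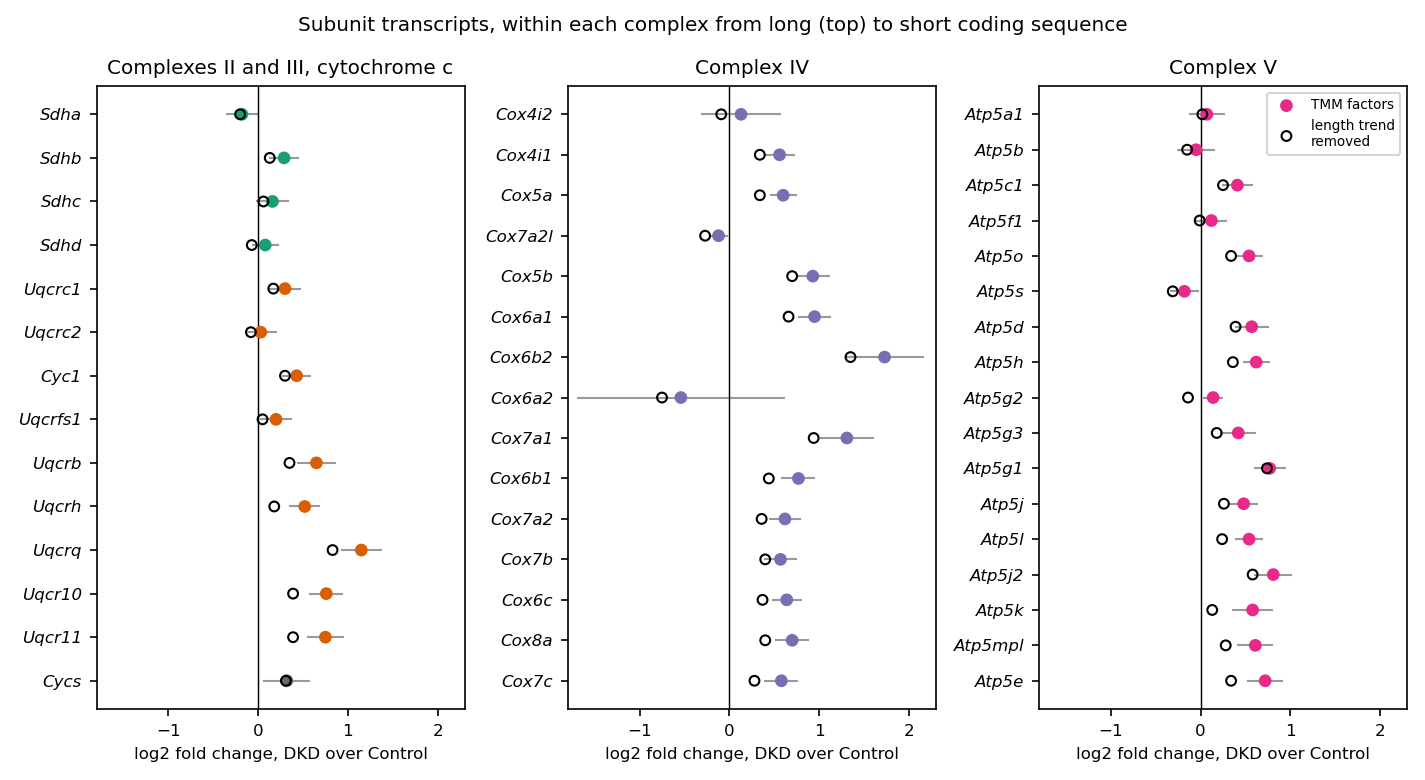
Log2 fold change, DKD over Control, of the 46 tested members (horizontal axis); filled points are the values with TMM factors, lines are ± 1 SE from 3 libraries per group, and open points are the values after a trend on transcript length was removed in each library. Within each complex genes run from the longest coding sequence at the top to the shortest. Filled points of complexes III, IV and V lie mostly right of 0, the long subunits Sdha, Uqcrc2, Atp5a1 and Atp5b lie near 0, and most open points lie left of the filled ones.

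Promoters of nuclear respiratory genes are known for sites of the activators NRF1 and GABPA (nuclear respiratory factors 1 and 2). Promoters from 250 bases before to 50 after the start were available from RefSeq (GRCm38.p6) for 37 of the member symbols. The NRF1 motif GCGCANGCG, searched on both strands, was in 13 of the 37 (35.1%), against 7.02% of all 26994 genes with promoters of the same length, counting a gene when any of its promoters held the motif. The GABPA motif CCGGAAG was in 12 (32.4%), against 9.92%. The YY1 motif AAGATGGCG and the ESRRA motif TCAAGGTCA were in 2 members each (5.41%), against 1.63% and 0.467% of all genes. For members with an NRF1 match the median log2 fold change was 0.42, against 0.59 for the 22 tested members without one. Members with a GABPA match had a median of 0.60, against 0.54 for those without. The levels of the 2 activators' own transcripts are given further on. The sequences below are those of the member of complexes III, IV and V with the smallest p among those holding an NRF1 match, and of Sdha, which holds 3 such matches and was not higher in DKD. They run 5′ to 3′ along the gene, on the minus strand in each case, with matches to the NRF1 and GABPA motifs on either strand in capitals.
Uqcr11, chr10:80406772-80407071: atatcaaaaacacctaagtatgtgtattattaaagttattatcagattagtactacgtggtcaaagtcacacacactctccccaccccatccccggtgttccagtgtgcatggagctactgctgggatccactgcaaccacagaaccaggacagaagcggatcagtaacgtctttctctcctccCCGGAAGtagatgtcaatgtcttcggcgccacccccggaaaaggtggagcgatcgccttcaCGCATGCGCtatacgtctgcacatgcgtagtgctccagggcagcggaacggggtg
Cox6a1, chr5:115348909-115349208: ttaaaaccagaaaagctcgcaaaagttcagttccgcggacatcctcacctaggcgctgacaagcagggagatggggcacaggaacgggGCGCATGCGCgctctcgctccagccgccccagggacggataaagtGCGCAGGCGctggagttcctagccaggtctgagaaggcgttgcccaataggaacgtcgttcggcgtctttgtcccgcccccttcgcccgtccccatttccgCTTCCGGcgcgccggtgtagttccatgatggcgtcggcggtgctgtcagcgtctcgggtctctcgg
Atp5h, chr11:115419870-115420169: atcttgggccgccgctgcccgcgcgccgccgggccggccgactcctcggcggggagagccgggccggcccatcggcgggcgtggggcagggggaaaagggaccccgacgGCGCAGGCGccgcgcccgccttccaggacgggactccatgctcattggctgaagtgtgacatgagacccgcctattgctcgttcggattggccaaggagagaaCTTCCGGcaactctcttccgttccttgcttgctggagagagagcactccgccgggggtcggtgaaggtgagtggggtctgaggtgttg
Sdha, chr13:74350191-74350490: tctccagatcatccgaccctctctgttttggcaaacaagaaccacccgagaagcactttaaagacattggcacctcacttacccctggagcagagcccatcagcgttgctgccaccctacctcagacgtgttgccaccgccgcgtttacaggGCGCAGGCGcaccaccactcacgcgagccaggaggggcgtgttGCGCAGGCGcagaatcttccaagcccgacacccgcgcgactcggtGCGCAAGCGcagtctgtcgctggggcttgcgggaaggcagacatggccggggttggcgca
These 4 were picked by their values, so nothing is read from their fold changes. Members of each kind occurred. Cox6b1 and Cox8a hold a GABPA match with DKD above Control, and Sdhd holds both motifs with overlapping groups. Uqcr10, Cox5b and Cox7a1 hold neither with DKD above Control, and Cox7a2l holds neither with DKD below Control. The part of these motifs in the member values was not tested. A match describes the letters in these windows and is not evidence of binding.

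In complex II the libraries of the groups overlapped for all 4 subunits, and 0 of them passed the test (1.16% of all genes did). Over all genes, 15.5% had DKD above Control and 15.2% below, without overlap. Sdha, the flavoprotein that oxidises succinate, was at 680, 733 and 629 CPM in DKD and 674, 702 and 943 CPM in Control, a log2 fold change of −0.18 ± 0.18 (SE, adjusted p = 0.596 by edgeR). Control replicate 3 held the highest value and the other libraries lay together. Sdhb, the iron-sulfur subunit, was at 376, 295 and 342 CPM in DKD and 253, 244 and 333 CPM in Control (0.29 ± 0.17, adjusted p = 0.37 by edgeR). Sdhc and Sdhd anchor the enzyme in the membrane and bind ubiquinone. Sdhc was at 392, 306 and 331 CPM in DKD and 267, 278 and 373 CPM in Control (0.16 ± 0.18, adjusted p = 0.634 by edgeR). Sdhd was at 277, 259 and 252 CPM in DKD and 225, 223 and 295 CPM in Control (0.08 ± 0.15, adjusted p = 0.788 by edgeR), and its sign turned with library totals as the scaling (−0.03) and with the length trend removed (−0.07). Control replicate 3 lay inside or above the DKD range for all 4. At an unadjusted p under 0.05, 0 of the 4 were higher or lower, against 11.8% and 10.9% of all genes. With only 4 genes such counts are near the shares of all genes and set complex II apart from no other genes.

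In complex III all 9 members had a log2 fold change above 0, between 0.03 and 1.15, and 6 (66.7%) were higher at an unadjusted p under 0.05, against 11.8% of all genes, with DKD above Control in the same number, against 15.5%. The first count was 3 without DKD replicate 1, Control replicate 1 or Control replicate 2, against 8.45%, 8.97% and 8.45% of all genes. The small subunits held the larger values. Uqcrq, a short subunit that sits against cytochrome b, was at 213, 134 and 217 CPM in DKD and 79, 70.2 and 105 CPM in Control. All DKD libraries lay above all Control libraries, with DKD replicate 2 nearest to them, and the log2 fold change was 1.15 ± 0.23 (fold 2.22, adjusted p = 0.0605 by edgeR and 0.000233 by DESeq2). Uqcr10 was at 211, 137 and 189 CPM in DKD and 99.1, 94.5 and 124 CPM in Control (0.76 ± 0.19, adjusted p = 0.0882 by edgeR). Uqcr11 was at 128, 85.5 and 114 CPM in DKD and 59.3, 54.5 and 81 CPM in Control (0.75 ± 0.21, adjusted p = 0.101 by edgeR). Both are also small single-span subunits, and in both the lowest DKD library lay just above Control replicate 3. Uqcrh, the acidic hinge subunit near cytochrome c1, was the most abundant complex III member per length, with means of 422 CPM per kb of transcript in DKD and 295 in Control. Its libraries were at 230, 169 and 202 CPM in DKD and 131, 125 and 164 CPM in Control (0.52 ± 0.17, adjusted p = 0.136 by edgeR), again without overlap.

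The catalytic and core subunits of complex III held smaller values. Cyc1, the haem-bearing cytochrome c1, was at 451, 365 and 409 CPM in DKD and 285, 272 and 353 CPM in Control (0.43 ± 0.16, adjusted p = 0.176 by edgeR), and the groups did not overlap. The Rieske iron-sulfur protein Uqcrfs1 and the core proteins Uqcrc1 and Uqcrc2 had log2 fold changes of 0.20, 0.30 and 0.03, and their groups overlapped. Uqcrb had 0.65, but 34.79% of the 31-base words of its transcripts also occur in other genes, so its counts may be shared with copies elsewhere. In Uqcrc2, 19.75% of the exonic bases lie opposite exons of Pdzd9, and the use of the strand in counting is not stated. The ratio of Uqcrq to Uqcrc1 counts within a library was 0.374, 0.257 and 0.418 in DKD and 0.206, 0.181 and 0.195 in Control. Uqcrq was taken for its small p, so this ratio is a description.

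Cytochrome c, the mobile carrier between complexes III and IV, comes from Cycs, which was at 356, 249 and 376 CPM in DKD and 217, 213 and 357 CPM in Control. Control replicate 3 lay with the higher DKD libraries and DKD replicate 2 with the lower Control libraries. The log2 fold change was 0.32 ± 0.26 with an adjusted p of 0.506 by edgeR. Of the 31-base words of Cycs, 29.38% occur in other genes.

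Complex IV held the largest median and the highest share of members past an unadjusted p of 0.05, 12 of 15 tested (80.0%, against 11.8% of all genes), with DKD above Control in 11 (73.3%, against 15.5%). Its nuclear subunits surround a catalytic core that is made in the mitochondrion. Cox6a1, a regulatory subunit and the most abundant one per length (976 CPM per kb in DKD, 505 in Control), was at 628, 466 and 578 CPM in DKD and 277, 256 and 332 CPM in Control. The lowest DKD library was well above the highest Control library, and the log2 fold change was 0.95 ± 0.18 (fold 1.93, adjusted p = 0.056 by edgeR and 6.2e-05 by DESeq2). Cox5b, which binds zinc on the matrix side, was at 265, 182 and 235 CPM in DKD and 113, 104 and 141 CPM in Control (0.93 ± 0.19, adjusted p = 0.0585 by edgeR). These 2 genes and Uqcrq passed the adjusted threshold with library totals as the scaling (1.39% of all genes did) and with a filter of at least 1 CPM in 3 libraries (3.43%). Cox6a1 alone passed with upper quartile factors (1.22%), and Uqcrq alone without DKD replicate 2 (1.46%). Cox8a, the widely used form of subunit VIII, was at 469, 331 and 421 CPM in DKD and 223, 232 and 296 CPM in Control (0.70 ± 0.19, adjusted p = 0.0955 by edgeR), without overlap. The remaining subunits Cox5a, Cox6c, Cox7b and Cox7c had log2 fold changes from 0.57 to 0.64, and among these 4 the groups overlapped for Cox7c, with 109 CPM in both the lowest DKD and the highest Control library. In Cox7c 24.55% of the 31-base words occur in other genes, and in Cox6a1 18.45%.

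Several complex IV subunits have isoform genes known for tissue-restricted use, and here the widely used isoform held nearly all counts of each pair. Cox4i1 was at 695, 544 and 662 CPM in DKD and 403, 396 and 489 CPM in Control, without overlap (0.56 ± 0.17, adjusted p = 0.115 by edgeR). Its partner Cox4i2, known from lung and from cells in low oxygen, was at 0.747, 0.582 and 0.771 CPM in DKD and 0.347, 0.828 and 0.74 CPM in Control. The Cox4i2 groups overlapped (0.13 ± 0.45, adjusted p = 0.89 by edgeR), and its sign turned with the length trend removed (−0.09) and with the GC trend removed (−0.04). Cox6a2, the heart and skeletal muscle partner of Cox6a1, was under 0.5 CPM in every library, at 0.179, 0.346 and 0 CPM in DKD and 0.0957, 0.235 and 0.436 CPM in Control (−0.54 ± 1.16, adjusted p = 0.823 by edgeR).

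Cox6b1, which faces the intermembrane space and helps to join the dimer, was at 318, 232 and 291 CPM in DKD and 152, 142 and 199 CPM in Control (0.77 ± 0.19, adjusted p = 0.0803 by edgeR). Cox6b2, its partner known from testis, had the highest fold of the 46 tested members. It was at 19.2, 8.6 and 21.1 CPM in DKD and 6.46, 5.74 and 2.56 CPM in Control, with DKD replicate 2 only a little above Control replicate 1 (1.73 ± 0.44, fold 3.31, adjusted p = 0.0896 by edgeR and 0.000609 by DESeq2). Cox6b2 made up 5.69, 3.58 and 6.76% of the pair's counts in DKD and 4.08, 3.88 and 1.27% in Control, so that its share overlapped between the groups. Control replicate 3, highest in its group for nearly all members, was the lowest for Cox6b2.

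In the Cox7a family the members differed in sign. Cox7a2, the widely used subunit, was at 240, 182 and 214 CPM in DKD and 128, 119 and 168 CPM in Control (0.62 ± 0.18, adjusted p = 0.109 by edgeR). Cox7a1, the heart and muscle isoform, was low but higher in each DKD library, at 6.57, 3.91 and 6.62 CPM in DKD and 2.44, 1.78 and 2.68 CPM in Control (1.31 ± 0.30, fold 2.48, adjusted p = 0.0739 by edgeR). Cox7a2l, which is not a standing subunit but links complexes III and IV into supercomplexes, was at 125, 119 and 122 CPM in DKD and 129, 139 and 129 CPM in Control. It was the single member with all DKD libraries below all Control libraries, by a small margin (−0.12 ± 0.10, adjusted p = 0.546 by edgeR). Cox7a2l held 33.6, 39.1 and 35.5% of the counts of the 3 genes in DKD and 49.6, 53.5 and 43.2% in Control, and Cox7a2 held 64.6, 59.6 and 62.6% in DKD and 49.4, 45.8 and 55.9% in Control. Neither share overlapped between the groups. Cox7a2l has a transcript of 1102.5 bases (the median over its transcripts) against 659 for Cox7a2, which bears on the length relation given below.

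Cox8b, the heart, muscle and brown fat partner of Cox8a, was left out of the test for low counts and was at 0, 0.0416 and 5.07 CPM in DKD and 0.179, 0.0988 and 0 CPM in Control. DKD replicate 3 thus held nearly all of it. The brown fat genes Ucp1 and Cidea were also highest in DKD replicate 3, but unlike Cox8b both were above 2 CPM in Control replicate 1. Ucp1, the uncoupling protein of brown fat, was at 0.179, 0 and 5.09 CPM in DKD and 2.31, 0.605 and 0 CPM in Control. Cidea was at 0, 0.111 and 14.8 CPM in DKD and 3.42, 1.11 and 0 CPM in Control. The 10 adipocyte markers summed to 81.1, 104 and 445 CPM in DKD and 169, 122 and 44.1 CPM in Control, highest in DKD replicate 3 and lowest in Control replicate 3. The 10 striated muscle markers summed to 7.37, 3.73 and 5.54 CPM in DKD and 2.93, 3.57 and 2.37 CPM in Control. This sum moved in the direction of Cox7a1, with DKD replicate 2 next to Control replicate 2. Only 3 of the 10 had enough counts to be tested, 2 with a log2 fold change above 0 and 1 below, and 1 was at 0 in all libraries. The part of such cells in the isoform values was not tested.

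**Figure D3:**
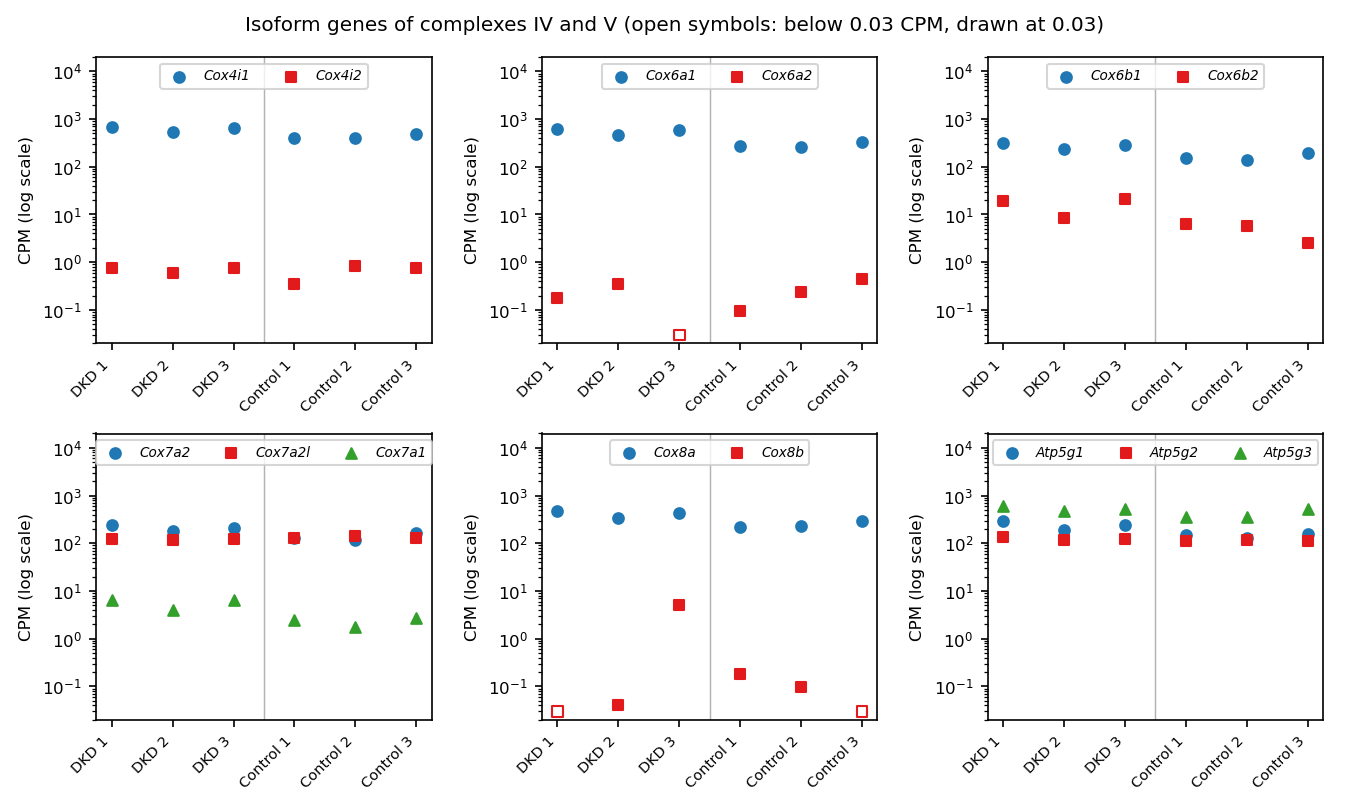
Level of the isoform genes in each library (vertical axis, CPM on a log scale), with the 3 DKD libraries left of the 3 Control libraries. Open symbols mark values below 0.03 CPM, drawn at 0.03. Cox4i2, Cox6a2 and Cox8b lie far below their partners, Cox7a1 is higher in all 3 DKD libraries, and Cox7a2 lies above Cox7a2l in each DKD library and below it in Control replicates 1 and 2.

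In complex V, 15 of the 17 tested members had a log2 fold change above 0, 11 (64.7%, against 11.8% of all genes) were higher at an unadjusted p under 0.05 and 10 (58.8%, against 15.5%) had DKD above Control. The first count was 5 without DKD replicate 1 (8.45% of all genes), 6 without Control replicate 1 (8.97%) and 5 without Control replicate 2 (8.45%). The catalytic head, called F1, showed a gap between its long and short subunits. Atp5b, the catalytic beta subunit and the most abundant member per length (1162 CPM per kb in DKD, 1200 in Control), was at 2285, 2278 and 2117 CPM in DKD and 2003, 2051 and 2843 CPM in Control. Control replicate 3 alone lay above the DKD libraries (−0.05 ± 0.21, adjusted p = 0.919 by edgeR), and without it the log2 fold change was 0.13. Atp5a1, the alpha subunit, had 0.07 with overlapping groups. The gamma, delta and epsilon subunits of the central stalk, Atp5c1, Atp5d and Atp5e, had 0.41, 0.57 and 0.72, and in all 3 the DKD libraries lay above Control.

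Among the subunits of the stator and membrane part, Atp5j2 (subunit f) was at 222, 146 and 196 CPM in DKD and 95.3, 94.2 and 132 CPM in Control, without overlap (0.81 ± 0.21, fold 1.75, adjusted p = 0.0896 by edgeR). Atp5h (subunit d) was at 257, 192 and 237 CPM in DKD and 142, 138 and 168 CPM in Control, also without overlap (0.62 ± 0.15, adjusted p = 0.0862 by edgeR), but 25.39% of its 31-base words occur in other genes. Apart from subunit c, the other members of this part ran from 0.12 for Atp5f1 (subunit b) to 0.61 for Atp5mpl. Atp5o, the subunit that joins the stator to the head, had 0.54, with 49.62% of its 31-base words in other genes. Atp5s, a coupling factor also known as Dmac2l and not a standing subunit, was at 12.4, 11 and 9.74 CPM in DKD and 11.6, 11.8 and 14.1 CPM in Control (−0.18 ± 0.16, adjusted p = 0.54 by edgeR), with overlap.

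The ring of subunit c is encoded by 3 genes whose mature proteins are identical and whose targeting sequences differ. Atp5g1 was at 294, 194 and 247 CPM in DKD and 146, 126 and 160 CPM in Control (0.77 ± 0.18, fold 1.7, adjusted p = 0.0789 by edgeR), without overlap. Atp5g3, the most abundant of the 3 per length, was at 619, 483 and 534 CPM in DKD and 361, 349 and 516 CPM in Control (0.42 ± 0.20, adjusted p = 0.266 by edgeR), with Control replicate 3 inside the DKD range. Atp5g2 was at 135, 116 and 120 CPM in DKD and 110, 115 and 112 CPM in Control, without overlap but with DKD replicate 2 next to Control replicate 2 (0.14 ± 0.11, adjusted p = 0.513 by edgeR). The sign of Atp5g2 turned with the length trend removed (−0.14) and with the GC trend removed (−0.01), and 40.22% of its 31-base words occur in other genes. Atp5g1 made up 28.1, 24.5 and 27.4% of the counts of the 3 genes in DKD and 23.7, 21.3 and 20.3% in Control, without overlap. Against the alpha subunit, the ratio of Atp5g1, taken for its small p, to Atp5a1 counts was 0.143, 0.0959 and 0.142 in DKD and 0.0889, 0.0749 and 0.0718 in Control. Atpif1 and Usmg5 of complex V carry symbols outside the rule. Atpif1, the inhibitor of the synthase, had 0.62 ± 0.20 (adjusted p = 0.131 by edgeR), and Usmg5, a small membrane subunit, had 0.67 ± 0.23 (adjusted p = 0.153 by edgeR), and both overlapped between the groups.

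The share of all counts taken by each complex gave the weight of these genes in the libraries. Complex IV members took 0.335, 0.279 and 0.319% of the counts in DKD and 0.216, 0.208 and 0.216% in Control. Complex III members took 0.258, 0.235 and 0.244% in DKD and 0.2, 0.196 and 0.219% in Control. In both complexes the groups did not overlap. Complex V members took 0.786, 0.764 and 0.723% in DKD and 0.696, 0.691 and 0.75% in Control, with Control replicate 3 inside the DKD range and Atp5a1 and Atp5b as its most counted members. Complex II members took 0.157, 0.162 and 0.147% in DKD and 0.16, 0.162 and 0.176% in Control.

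Across the members, short transcripts had the higher fold changes. The Spearman correlation of log2 fold change with transcript length was −0.66 over the 46 tested members, which share the same 6 libraries, and −0.263 over 19684 genes with a transcript model. The median transcript length was 736 bases over the members and 2309 over all genes. With coding length it was −0.656 over the members, and within complexes III, IV and V it was −0.833, −0.221 and −0.721. For the 34 members with a coding sequence under 600 bases the median log2 fold change was 0.61. Of them, 26 were higher at an unadjusted p under 0.05, against 11.8% of all genes of any length. For the 12 members at or over 600 bases, the catalytic and core subunits among them, the median was 0.16. Of these, 3 were higher at that level (Cyc1, Atp5c1 and Atp5o), against the same 11.8% of all genes. The share among all genes of like coding length is not given here. The limit of 600 was chosen after the values were known.

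**Figure D4:**
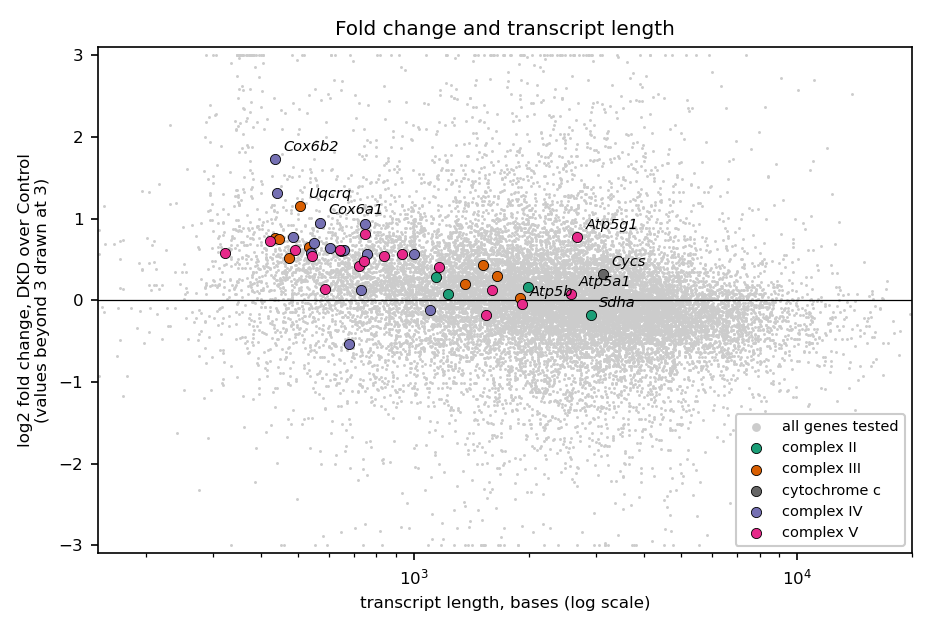
Log2 fold change, DKD over Control (vertical axis, values beyond 3 drawn at 3), against transcript length in bases (horizontal axis, log scale) for all genes tested (grey) and the members (coloured by complex). Most members lie at the short end, at a median of 736 bases, above 0, and most of the longest members lie close to 0, unlike Atp5g1 and Cycs.

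When a smooth trend on transcript length was removed in each library, the medians were 0 in complex II, 0.30 in complex III, 0.37 in complex IV and 0.25 in complex V. The members higher at an unadjusted p under 0.05 then numbered 7 (1 in complex III, 4 in complex IV and 2 in complex V), against 8.79% of all genes. Those 7 were Uqcrq, Cox5b, Cox6a1, Cox6b2, Cox7a1, Atp5g1 and Atp5j2. Uqcrq kept a log2 fold change of 0.83 and Cox6a1 one of 0.66. For Atp5g1 the annotated transcripts run from 596 to 4715 bases, so the length given to it is uncertain. With a trend on GC content removed instead, the medians were 0.08, 0.49, 0.59 and 0.45 in complexes II to V, and 19 members were higher, against 8.47% of all genes. A technical and a biological source of the relation with length cannot be told apart in these libraries.

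The mitochondrial partners of the nuclear subunits had values of the same sign. All 6 mitochondrially encoded subunits of complexes III, IV and V had a log2 fold change above 0, with a median of 0.68, and 0 passed the adjusted threshold. The catalytic core subunit mt-Co1 was at 66149, 51243 and 60517 CPM in DKD and 38564, 36677 and 44395 CPM in Control (0.57 ± 0.35, adjusted p = 0.371 by edgeR), without overlap. The ratio of Cox6a1 to mt-Co1 counts was 0.00949, 0.0091 and 0.00955 in DKD and 0.00717, 0.00699 and 0.00748 in Control, a description, since Cox6a1 was taken for its small p. The proton channel subunit mt-Atp6 was at 11535, 8150 and 11684 CPM in DKD and 5663, 5114 and 7290 CPM in Control (0.80 ± 0.28, adjusted p = 0.154 by edgeR). For mt-Atp8 the log2 fold change was 1.32 ± 0.47 (adjusted p = 0.159 by edgeR) at 851, 651 and 2180 CPM in DKD and 397, 412 and 661 CPM in Control, with overlap.

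Of the assembly factors, which build the complexes, 25 of 40 tested had a log2 fold change above 0, with a median of 0.08. At an unadjusted p under 0.05, 11 were higher and 1 was lower, against 11.8% and 10.9% of all genes. The DKD libraries lay above Control for 12 and below for 3, against 15.5% and 15.2% of all genes. The adjusted threshold was passed by 1, against 1.16% of all genes. This was Uqcc2, a factor for complex III, which rose to 24.4, 18.2 and 21.3 CPM in DKD, against 11.8, 11.4 and 10.9 CPM in Control (0.91 ± 0.14, adjusted p = 0.04 by edgeR). Its adjusted p was under the threshold without DKD replicate 2 (0.0455), but not without any other library (0.0501 to 0.145), nor with the length trend removed (0.112), the GC trend removed (0.0738), library totals (0.0744) or no filter (0.0738). With a replicate block it was 0.166 by edgeR. The list holds 1 member of the subunit set, Atp5s under its name Dmac2l. A further list held 18 genes that feed electrons to ubiquinone, make ubiquinone or attach haem to cytochrome c. Of these, 7 were above 0, with a median of −0.04, and 0 passed. The 2 with the smallest p went opposite ways. Prodh, proline dehydrogenase, was at 161, 151 and 114 CPM in DKD and 293, 247 and 365 CPM in Control (−1.09 ± 0.20, adjusted p = 0.056 by edgeR), and Etfb, a subunit of the electron transfer flavoprotein, was at 476, 333 and 394 CPM in DKD and 218, 219 and 284 CPM in Control (0.74 ± 0.19, adjusted p = 0.0875 by edgeR).

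Of 10 tested genes for exchange of ATP and phosphate across the mitochondrial membranes, 9 were above 0, with a median of 0.35. Here 1 passed, against 1.16% of all genes. Ucp2, a carrier of the inner membrane related to the uncoupling protein of brown fat, rose to 314, 277 and 415 CPM in DKD, against 117, 117 and 76.9 CPM in Control (1.70 ± 0.23, adjusted p = 0.0298 by edgeR, and 0.0179 with the length trend removed). Its adjusted p was 0.045 without DKD replicate 2 and 0.0228 without Control replicate 3, but 0.0868 to 0.121 without each of the other 4 libraries and 0.057 with no filter. With a replicate block it was 0.166 by edgeR. Of 18 regulators of mitochondrial biogenesis, 7 were above 0, with a median of −0.11, and 1 passed, against 1.16% of all genes. Gabpa, which binds the CCGGAAG motif shown above, fell to 29.5, 31.4 and 27.6 CPM in DKD, against 46.4, 43.1 and 51.9 CPM in Control (−0.68 ± 0.11, adjusted p = 0.0472 by edgeR). It did not pass when any 1 library was left out (adjusted p of 0.0505 to 0.161 by edgeR) or with the length trend removed (0.124), the GC trend removed (0.0962), RLE factors (0.052), no filter (0.0865) or limma-voom (0.051). With a replicate block its adjusted p was 0.181 by edgeR. Gabpa neighbours a member, since 12.68% of the exonic bases of Atp5j (subunit F6, log2 fold change 0.48) lie opposite exons of Gabpa. The coactivator Ppargc1a was at 47.6, 54.5 and 31.9 CPM in DKD and 55.8, 52 and 66.1 CPM in Control, with overlap (−0.38 ± 0.20, adjusted p = 0.324 by edgeR). For Nrf1, the levels were 19.4, 21.2 and 21.9 CPM in DKD and 21.7, 18.6 and 16 CPM in Control (0.15 ± 0.14, adjusted p = 0.572 by edgeR), also with overlap.

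Other gene groups with short transcripts had values of the same kind. Over the 38 nuclear subunits of complex I the median log2 fold change was 0.49, with 27 (71.1%) higher at an unadjusted p under 0.05 and 1 past the adjusted threshold. For all genes these shares were 11.8% and 1.16%. The 13 mitochondrially encoded proteins had a median of 0.80, with 8 (61.5%) higher and 0 past the threshold. The 82 tested cytosolic ribosomal proteins, which take no part in respiration, had a median of 0.39, with 34 (41.5%) higher and 0 past the threshold. With the length trend removed these medians were 0.30, 0.55 and 0.16, against 0.29 over the members of complexes II to V with cytochrome c. The median transcript lengths were 810 bases for complex I and 772 bases for ribosomal proteins, close to the 736 of the members. The differences between these groups were not tested.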

How the data were processed

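Polyadenylated RNA of 3 DKD and 3 Control glomerular samples was sequenced in paired reads as dUTP libraries, per the labels' protocols. The submitters' processing notes name fastp, HISAT2, StringTie, edgeR and the build GRCm39; no source used here gives their versions, the annotation, the strand setting or how counts were derived. The authors deposited whole-number counts per Ensembl gene, not normalized, with totals of 71154026 to 83576494 per library. Precision was thus limited by the spread between libraries (biological coefficient of variation 33.2%) more than by counting, except for members with very few counts, such as Cox6a2.

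Symbols, transcript and coding lengths, GC content, shared 31-base words and exon overlaps came from a GRCm38 annotation, which matched 55141 identifiers and missed 260. Genes passing filterByExpr with the group (minimum count 10) were scaled with TMM factors and tested across all 19717 genes by edgeR 4.0.16 in R 4.3.3 (quasi-likelihood, no term besides group) with Benjamini-Hochberg adjustment and a threshold of 0.05. Fold changes are DKD over Control and ± beside them is the SE. Transcript length is the median over a gene's transcripts. Length and GC trends were removed as offsets from a spline of 5 degrees of freedom per library. Alternatives were other scalings and filters, robust dispersion, a replicate block, mitochondrial genes left out, DESeq2 1.42.0, limma-voom (limma 3.58.1) and each library left out. The procedure was tested on simulated counts drawn apart for each gene. These held no length trend and no tubule difference, so that test bears on neither.

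The members, the gene lists and the naming rule were chosen with earlier results of these data known. The rule gives values in every library for all complex II subunits, Cyc1, Cycs and the isoform genes, and in complexes III, IV and V for the 3 smallest p, the most abundant member per length and every member below 0; per pathway list it takes those past the threshold, or otherwise the 2 with the smallest p. Ppargc1a, Nrf1 and mt-Co1 were added after their values were seen. Ucp1 and Cidea were named beside Cox8b, outside this rule. No library was left out of the main values, and library numbers were not used as pairs.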

Additional observations from a re-analysis of the deposited data

How the results depend on the processing

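Of the 18 alternatives, none turned the median of complex III, IV or V below 0. The number of genes called over the whole table moved from 228 to 516 with a filter of at least 1 CPM in 3 libraries, to 56 with no filter and to 2152 with DESeq2, and ran from 1 to 386 when 1 library was left out. With the replicate block it was 0 by edgeR, and 27 members were then higher at an unadjusted p under 0.05. The share of all genes at that level in this fit is not given here. The deviations of same-numbered DKD and Control libraries from their group means had correlations of −0.183, 0.066 and −0.224. With 3 libraries per group such values cannot tell whether the numbers pair the samples, and the labels do not say. With the length trend removed, the members higher at an unadjusted p under 0.05 were 1 in complex III, 4 in complex IV and 2 in complex V. Of all genes, 8.79% were higher in that fit. The medians of complexes IV and V were then 0.37 and 0.25. With the GC trend removed, 3 were higher in complex III and 6 in complex V, against 8.47% of all genes. With 1 library left out the counts ran from 0 to 1 in complex II, 3 to 8 in complex III, 10 to 12 in complex IV and 5 to 13 in complex V, and the medians from 0.05 to 0.28, 0.41 to 0.64, 0.53 to 0.78 and 0.44 to 0.63. Complex III held 3 without DKD replicate 1, Control replicate 1 or Control replicate 2, and complex V held 5, 6 and 5 without those libraries. The shares of all genes in these fits were 8.45%, 8.97% and 8.45%. Without Control replicate 3 the share was 12.7%, and without DKD replicate 2 or 3 it is not given here. Among the members with values given in every library, signs turned for Sdhd (−0.03 with library totals, −0.07 with the length trend removed), Cox4i2 (−0.09 with the length trend removed, −0.04 with the GC trend removed), Atp5g2 (0 with library totals, −0.14 with the length trend removed, −0.01 with the GC trend removed), and with 1 library left out for Cox4i2 (−0.16 to 0.37), Cox6a2 (−1.53 to 0.09) and Atp5b (−0.14 to 0.13). Of the other members, Uqcrc2 (−0.08) and Atp5f1 (−0.01) turned with the length trend removed, and Atp5a1 (−0.01) with the GC trend removed. With the length trend removed 36 members were above 0, against 41 as reported. No member was called by edgeR as reported. Cox6a1 was called with upper quartile factors, Cox5b, Cox6a1 and Uqcrq with library totals and with the stricter filter, and Uqcrq without DKD replicate 2. The cause of these changes was not tested. Both Cox4i2 and Cox6a2 were under 1 CPM in every library. Cox6a2, with 0 to 33 counts in a library, is limited by depth, while Cox4i2 held 29 to 67 counts.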

Other observations

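Among the 8 pseudogenes left out of the members, Cox6c2, annotated as a processed copy of Cox6c, held the most counts. It was at 2.73, 1.93 and 1.82 CPM in DKD and 0.909, 0.692 and 1.26 CPM in Control, without overlap between the groups (log2 fold change 1.18 ± 0.35, adjusted p = 0.118 by edgeR), against 332, 249 and 298 CPM in DKD and 179, 163 and 222 CPM in Control for Cox6c itself. Of the 31-base words of Cox6c, 11.89% occur in other genes. The other 7 were each at or under 1.07 CPM in every library.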
